A study of Homo sapiens with 6 samples.

Results

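The PARP family genes described here are PARP9, its partner DTX3L, PARP10, PARP12, PARP14 and ZC3HAV1, which are known as interferon-linked, set beside PARP1 and PARP2, the DNA break sensors of the family. They were chosen by name and not by a threshold on a measured value, though earlier results of these data were known, and are 8 of the 62492 genes listed for each library and 8 of the 17000 genes with enough counts to be tested. Poly(A) RNA was sequenced from HCT116 cells, a human colorectal carcinoma line labelled as wild type. The cells were transfected with 20 nM of siControl or of siNONO with Lipofectamine RNAiMAX, and 3 libraries per group were labelled as Sets 1 to 3. The study set out to ask what NONO, a nuclear RNA- and DNA-binding protein of paraspeckles, does in these cells. The effect of losing NONO and any other effect of the siNONO reagent cannot be told apart in this design.

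PARP proteins transfer ADP-ribose from NAD to proteins and nucleic acids. PARP1 and PARP2 build long chains of it at DNA breaks, whereas PARP10, PARP12 and PARP14 add single units, and PARP9 and ZC3HAV1 are mostly known for what they bind. Interferons act through a complex that includes STAT2 and IRF9 and binds the interferon-stimulated response element in the promoters of its target genes, and several PARP genes are among those targets.

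The libraries held 21765393 to 32659002 estimated counts each. Levels are given as CPM, the counts of a gene relative to the library's total count after TMM scaling, and a change is the log2 fold change of siNONO against siControl. It was tested with edgeR's quasi-likelihood test, blocked by Set, and Benjamini-Hochberg adjusted p-values over the 17000 genes. A gene is called where that adjusted p is 0.05 or less. NONO itself had 496, 495 and 516 CPM in siControl of Sets 1 to 3 and 89.5, 95.5 and 100 CPM in siNONO, a log2 fold change of -2.40 (SE 0.0337). Of the epithelial markers, 7 of 7 were listed, with a summed level of 2880 to 3014 TPM in siControl and 2720 to 3010 TPM in siNONO, although VIL1 was near 0. Of the markers of other cells, 3 of 4 were listed, and they summed to 16.4 to 19.0 TPM in siControl and 16.2 to 18.3 TPM in siNONO, nearly all of it COL1A1, with PTPRC and COL1A2 at or near 0. The p-values measure the spread between these libraries, which the series describes as biological replicates. As in any bulk sample, a change in RNA per cell and a change in the share of cells that hold it cannot be told apart.

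The stretches around the start sites are shown first, since several of these genes carry the same short motif there. RefSeq promoter windows, 250 bases before to 50 after each start, were had for 7 of the 8 genes. The letters GAAANNGAAA, the core of the interferon-stimulated response element, or TTTCNNTTTC on the other strand, were present in 1255 of all 35116 windows, or 3.57%. They were present in the windows of DTX3L, PARP14 and PARP12 and in 1 of the windows of PARP9, and in none of those of ZC3HAV1, PARP1 and PARP2. The lines below give 150 bases before and 30 after the start, read 5′ to 3′ on the strand of each gene on GRCh37, with the motif in capitals. DTX3L and PARP14 are on the plus strand at chr3:122283035-122283214 and chr3:122399536-122399715. PARP12, ZC3HAV1 and PARP1 are on the minus strand at chr7:139762722-139762901, chr7:138794437-138794616 and chr1:226595765-226595944.
DTX3L: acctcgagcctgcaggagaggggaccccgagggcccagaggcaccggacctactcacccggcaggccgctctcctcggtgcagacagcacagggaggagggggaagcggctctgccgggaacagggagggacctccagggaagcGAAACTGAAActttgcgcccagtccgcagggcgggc
PARP14: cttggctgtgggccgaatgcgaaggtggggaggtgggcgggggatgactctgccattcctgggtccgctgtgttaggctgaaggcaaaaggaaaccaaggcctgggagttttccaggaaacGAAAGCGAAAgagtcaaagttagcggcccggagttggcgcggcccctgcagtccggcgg
PARP12: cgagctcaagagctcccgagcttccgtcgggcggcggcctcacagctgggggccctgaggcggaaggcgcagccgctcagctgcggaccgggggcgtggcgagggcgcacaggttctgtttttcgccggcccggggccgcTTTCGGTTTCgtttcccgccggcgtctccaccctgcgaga
ZC3HAV1: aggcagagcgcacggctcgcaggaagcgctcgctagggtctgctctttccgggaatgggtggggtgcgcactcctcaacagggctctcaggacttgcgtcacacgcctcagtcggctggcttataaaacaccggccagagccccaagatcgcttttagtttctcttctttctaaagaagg
PARP1: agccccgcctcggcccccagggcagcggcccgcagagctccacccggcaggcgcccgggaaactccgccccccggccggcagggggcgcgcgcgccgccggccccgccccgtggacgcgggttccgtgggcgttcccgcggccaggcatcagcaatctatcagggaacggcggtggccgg

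The match lay from -6 to 4 of the DTX3L start, from -29 to -20 of that of PARP14 and from -10 to -1 of that of PARP12, where it read on the other strand. DTX3L and PARP9 are transcribed away from each other and their windows share 137 bases, so the match in the window of PARP9, from -41 to -32, is the same copy as that of DTX3L. The gamma-activated site TTCNNNGAA, which reads the same on both strands, was in 2689 windows, or 7.66%. It was in those of PARP14, from -40 to -32, of ZC3HAV1, from -104 to -96, and of PARP2. A match only says that these letters are there.

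All 8 genes were called higher in siNONO and none lower, but by very different amounts. The 6 interferon-linked genes rose by 1.71- to 6.86-fold, with DTX3L, PARP10 and PARP9 at 4.17-, 5.73- and 6.86-fold, while PARP1 rose by 1.25-fold and PARP2 by 1.12-fold. Of all genes tested, 23.2% were called higher and 23.4% lower by the same test, and the median log2 fold change of all genes was -0.005. Every siNONO library lay above every siControl library for each of the 8 genes, which held for 23.9% of all genes, while 24.0% lay below in every library. Of the calls over all genes 49.7% were higher, against 29.8% in a limma fit on log2(TPM + 1).

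PARP9 forms a complex with the ubiquitin ligase DTX3L and recognises ADP-ribose through its macrodomains. Its level was 17.0, 19.1 and 15.9 CPM in siControl of Sets 1, 2 and 3 and 121, 112 and 125 CPM in siNONO. The groups stood far apart, with little spread within either. The mean went from 17.3 ± 1.64 to 120 ± 6.50 CPM (SD, n = 3), and the log2 fold change was 2.78 (SE 0.0634, edgeR's quasi-likelihood test, Benjamini-Hochberg adjusted p = 1.37e-11), the rank 30 from the highest of 17000.

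DTX3L, the ligase that pairs with PARP9, had 30.4, 29.4 and 26.7 CPM in siControl and 126, 111 and 125 CPM in siNONO. Both groups were tight and far apart. The mean rose from 28.8 ± 1.91 to 121 ± 8.40 CPM (SD, n = 3) and the log2 fold change was 2.06 (SE 0.0518, adjusted p = 2.68e-11 from edgeR with Benjamini-Hochberg adjustment), at rank 64.

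The partners did not rise equally. The log2 fold change of PARP9 exceeded that of DTX3L by 0.78, 0.64 and 0.75 in Sets 1, 2 and 3, and the 95% confidence intervals of both genes, 2.64 to 2.92 and 1.95 to 2.17, did not overlap. The ratio of PARP9 to DTX3L counts went from 0.56, 0.652 and 0.597 in siControl to 0.96, 1.01 and 1.00 in siNONO. Per length, in TPM, the ratio went from 0.878, 1.01 and 0.946 to 1.55, 1.64 and 1.62. The groups did not overlap on either scale, where an exact two-sided permutation test of 3 against 3 libraries cannot give a p below 0.1. The annotated bodies of both genes overlap by 240 bases on opposite strands, and the strand setting of the counting is not given in the sources used here. The counts of both genes were not whole in 3 of 3 siNONO libraries and whole in 3 of 3 siControl libraries, and they added up to a whole number in each siNONO library, so some reads there were shared between them. How many reads these were was not measured, and how far this sharing moves the ratio was not tested.

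PARP14, a large enzyme with macrodomains that lies in the same stretch of chromosome 3, had 50.3, 51.1 and 47.3 CPM in siControl and 138, 126 and 146 CPM in siNONO. Its rise was the smallest of these neighbours, and its libraries did not overlap between groups. The mean went from 49.5 ± 2.00 to 137 ± 9.88 CPM (SD, n = 3) with a log2 fold change of 1.46 (SE 0.0508, adjusted p = 3.77e-10 from edgeR with Benjamini-Hochberg adjustment). DTX3L exceeded PARP14 by 0.59, 0.61 and 0.60 in the log2 fold change of Sets 1, 2 and 3. The TPM ratio of PARP14 to PARP9 fell from 1.53, 1.34 and 1.55 in siControl to 0.553, 0.584 and 0.56 in siNONO.

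PARP10, which adds single ADP-ribose units, had the lowest level of the 8 genes per length as well as by count, at 4.19, 3.32 and 4.33 CPM in siControl and 20.4, 19.5 and 29.4 CPM in siNONO. The siNONO library of Set 3 stood above the other two, and the spread within siNONO was the widest of the 8 genes relative to the mean. The mean went from 3.95 ± 0.545 to 23.1 ± 5.47 CPM (SD, n = 3) and the log2 fold change was 2.52 (SE 0.0942, adjusted p = 7.39e-10 from edgeR with Benjamini-Hochberg adjustment). Behind these levels lay estimated counts of 138.5, 91 and 95 for siControl and of 584, 540.7 and 821 for siNONO. The body of PARP10 overlaps that of GRINA on the opposite strand by 3360 bases. GRINA had 145, 137 and 158 CPM in siControl and 233, 232 and 258 CPM in siNONO, and how far its reads enter the counts of PARP10 was not tested.

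PARP12, a further enzyme that adds single units, had 18.0, 17.6 and 19.2 CPM in siControl and 60.9, 58.6 and 64.6 CPM in siNONO. Its change was the steadiest of the 8 across Sets, at 1.76, 1.74 and 1.75 on the log2 scale. The mean went from 18.3 ± 0.845 to 61.4 ± 3.02 CPM (SD, n = 3), a log2 fold change of 1.75 (SE 0.0482, adjusted p = 5.48e-11 from edgeR with Benjamini-Hochberg adjustment).

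ZC3HAV1, the zinc-finger antiviral protein that binds CpG-rich RNA, had 111, 116 and 111 CPM in siControl and 197, 188 and 193 CPM in siNONO. Its rise was the smallest of the 6, with means of 113 ± 2.96 and 192 ± 4.24 CPM (SD, n = 3) and a log2 fold change of 0.77 (SE 0.0346, adjusted p = 3.74e-09 from edgeR with Benjamini-Hochberg adjustment). Its confidence interval, 0.70 to 0.85, lay below that of PARP14, 1.35 to 1.57, and above that of PARP1, 0.26 to 0.39.

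PARP1, the main enzyme of chain formation at DNA breaks, had 294, 312 and 297 CPM in siControl and 365, 384 and 383 CPM in siNONO. The groups did not overlap and the mean went from 301 ± 10.1 to 377 ± 10.4 CPM (SD, n = 3), a log2 fold change of 0.33 (SE 0.0294, adjusted p = 1.76e-06 from edgeR with Benjamini-Hochberg adjustment). That change held rank 2699 of 17000. On log2(TPM + 0.1), a scale on which the median of all genes was -0.09, it was 0.23 and no longer called (limma adjusted p = 0.0724). The annotated pseudogenes PARP1P1 and PARP1P2 held at most 1 count in any library.

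PARP2, the smaller break sensor, had 42.4, 47.7 and 43.2 CPM in siControl and 50.3, 49.3 and 49.3 CPM in siNONO. The siControl library of Set 2 came close to the siNONO libraries. The mean went from 44.4 ± 2.82 to 49.6 ± 0.564 CPM (SD, n = 3), with a log2 fold change of 0.16 (SE 0.0489, adjusted p = 0.0165 from edgeR with Benjamini-Hochberg adjustment) and 0.25, 0.05 and 0.19 in Sets 1, 2 and 3. The call was lost without the Set as a block (edgeR adjusted p = 0.0653), with DESeq2 (adjusted p = 0.109), and on log2(TPM + 1), where the change was 0.03 (limma adjusted p = 0.732). It was lost as well without the siControl library of Set 1 (0.12, edgeR adjusted p = 0.159) and without the siNONO library of Set 1 (0.12, edgeR adjusted p = 0.183).

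**Figure D1:**
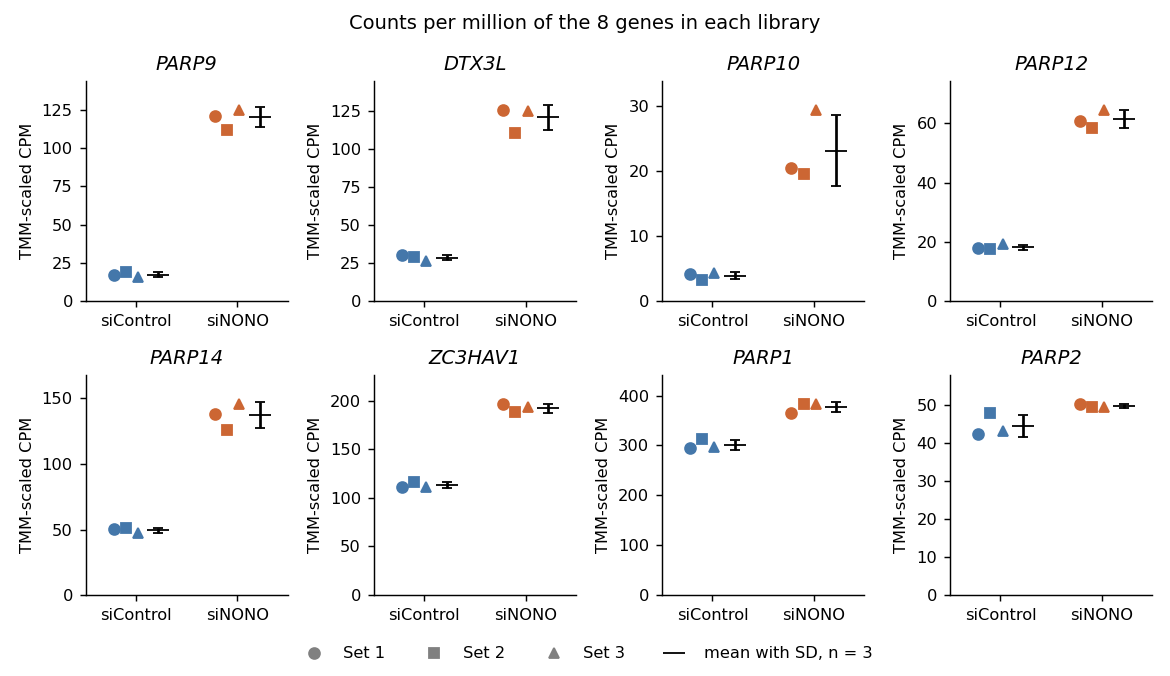
TMM-scaled CPM (linear axis from 0) of the 8 genes in each library, with siControl in blue, siNONO in orange, a marker shape for each Set, and the mean with its SD (n = 3) in black. PARP9 sits between 15.9 and 19.1 CPM in siControl and between 112 and 125 CPM in siNONO, whereas the PARP2 library of siControl Set 2, at 47.7 CPM, comes close to the lowest siNONO library, at 49.3 CPM.

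By group, the median log2 fold change of the 6 interferon-linked genes was 1.90 and that of PARP1 and PARP2 was 0.24, a difference of 1.66. It was 1.63, 1.65 and 1.71 in Sets 1, 2 and 3 (SD 0.0416), so every Set gave it nearly alike. These 3 pairs cannot give a two-sided p below 0.25 in an exact sign-flip test, and no p is given for it. Neighbours in the order of change differed beyond their 95% confidence intervals except PARP9 and PARP10, at 2.64 to 2.92 and 2.31 to 2.72, and PARP1 and PARP2, at 0.26 to 0.39 and 0.05 to 0.27. PARP9 exceeded PARP10 by 0.55, 0.00 and 0.21 in the 3 Sets. The change was smallest in Set 2 for 7 of the 8 genes, the exception being PARP10, whose smallest change was in Set 1. For PARP12 the Sets were nearly tied, at 1.76, 1.74 and 1.75. The share of all genes with their smallest change in Set 2 was not counted.

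Levels can be compared between genes only per length, in TPM. In siControl, PARP1 led with a mean of 114 TPM, followed by PARP2 at 42.2, ZC3HAV1 at 25.0, PARP12 at 14.4, PARP14 at 10.1, DTX3L at 7.29, PARP9 at 6.87 and PARP10 at 3.40 TPM. Only DTX3L and PARP9 had ranges that overlapped their neighbour's in this order. In siNONO, PARP1 still led at 134 TPM, and PARP9 at 46.1, PARP12 at 45.4, PARP2 at 43.2 and ZC3HAV1 at 42.6 TPM followed with overlapping ranges. By its mean, PARP9 thus moved from below every other member but PARP10 to a level that did not differ beyond the spread from that of PARP2. DTX3L at 28.8 and PARP14 at 26.0 TPM overlapped each other, and PARP10 was last at 20.4 TPM. With counts per kilobase of transcript in place of TPM, 5 of the 8 kept their place in siNONO, and the other three were PARP12, PARP2 and ZC3HAV1, whose ranges overlapped in TPM. PARP2 itself overlapped between the groups in TPM, at 39.8 to 44.8 in siControl and 42.3 to 44.9 in siNONO.

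The make-up of the summed level changed with this. The 8 genes together had 224, 228 and 219 TPM in siControl and 392, 367 and 399 TPM in siNONO. The 6 interferon-linked genes made up 30.6, 29.0 and 30.5% of it in siControl and 55.2, 51.8 and 55.4% in siNONO. The share of PARP1 fell from 50.6, 51.4 and 51.4% to 33.4, 36.6 and 33.9%, although its own level was higher in siNONO. These shares are sums over transcripts and say nothing of protein.

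**Figure D2:**
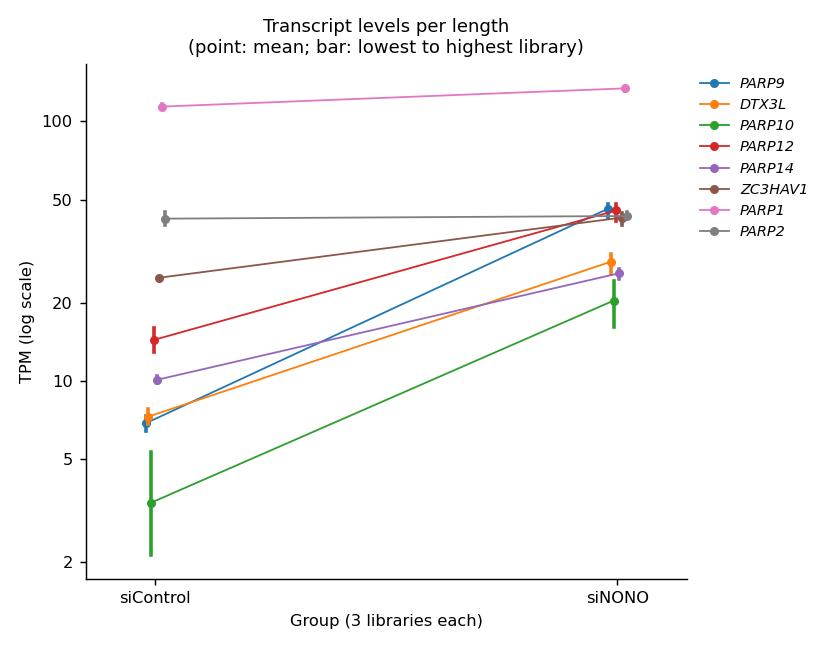
Level per length in TPM (log axis) of the 8 genes in siControl and siNONO, where a point is the mean of 3 libraries and a bar runs from the lowest to the highest library. PARP9 goes from 6.87 to 46.1 TPM and ends level with PARP12, PARP2 and ZC3HAV1, while PARP1 stays on top at 114 and 134 TPM.

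The rest of the PARP family was examined next. Of 10 further members, 9 were tested, 4 were called higher, 4 lower and 1 neither, with a median of -0.12, and none changed by as much as ZC3HAV1. Of all genes, 23.2% were called higher and 23.4% lower. These counts were not stable. The 4 higher became 1 without the siControl or the siNONO library of Set 2, and 2 with any 1 of the libraries of Set 1 or the siControl library of Set 3 left out. The 4 lower became 2 with either 1 of the libraries of Set 1 left out, and DESeq2 called 1 higher and 2 lower. PARP8, which adds single ADP-ribose units, rose most, from 29.6 ± 1.41 to 38.1 ± 4.72 CPM (SD, n = 3), a log2 fold change of 0.36 (edgeR with Benjamini-Hochberg adjustment, adjusted p = 0.000173). TNKS, tankyrase, which modifies axin and telomere proteins, fell most, from 112 ± 1.68 to 78.0 ± 2.26 CPM (SD, n = 3), a log2 fold change of -0.52 (edgeR with Benjamini-Hochberg adjustment, adjusted p = 1.16e-07). PARP16, PARP3 and PARP4 were called higher at 0.34, 0.23 and 0.08, and TIPARP, TNKS2 and PARP6 lower at -0.20, -0.13 and -0.12 on the log2 scale. Of the other Deltex ligases, relatives of DTX3L, 3 of 4 were tested, at -0.14 to 0.05, and none was called in either direction, although 1 was called lower without the siNONO library of Set 1.

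**Figure D3:**
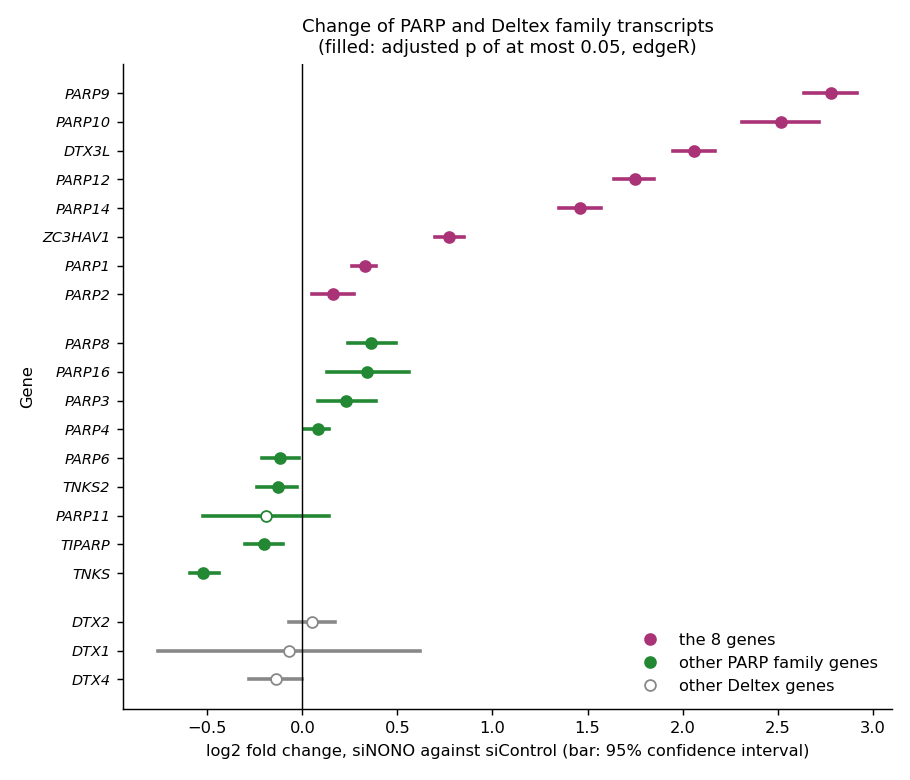
Log2 fold change of siNONO against siControl with its 95% confidence interval for the 8 genes, the 9 other PARP genes tested and the 3 other Deltex genes tested, where a filled point has an edgeR adjusted p of at most 0.05. The 6 interferon-linked genes lie from 0.77 to 2.78, and every other gene plotted lies from -0.52 to 0.36.

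PARP9, DTX3L, PARP15 and PARP14 follow each other on chromosome 3 of GRCh37. PARP9 lies on the minus strand at chr3:122246771-122283424, DTX3L on the plus strand at chr3:122283185-122294050, PARP15 at chr3:122296475-122357894 and PARP14 at chr3:122399686-122449687, both on the plus strand. PARP15, with 9 counts summed over the siControl libraries and 5 over those of siNONO, was not tested, so it was near the limit of detection in both groups while the genes on either side of it were called higher. Beyond the cluster, KPNA1 had a log2 fold change of 0.08 (edgeR with Benjamini-Hochberg adjustment, adjusted p = 0.0866), HSPBAP1 of 0.18 (adjusted p = 0.21) and SLC49A4 of 0.04 (adjusted p = 0.615). The noncoding gene WDR5B-DT, at the far end of KPNA1, was called higher at 0.41 (adjusted p = 0.000773).

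**Figure D4:**
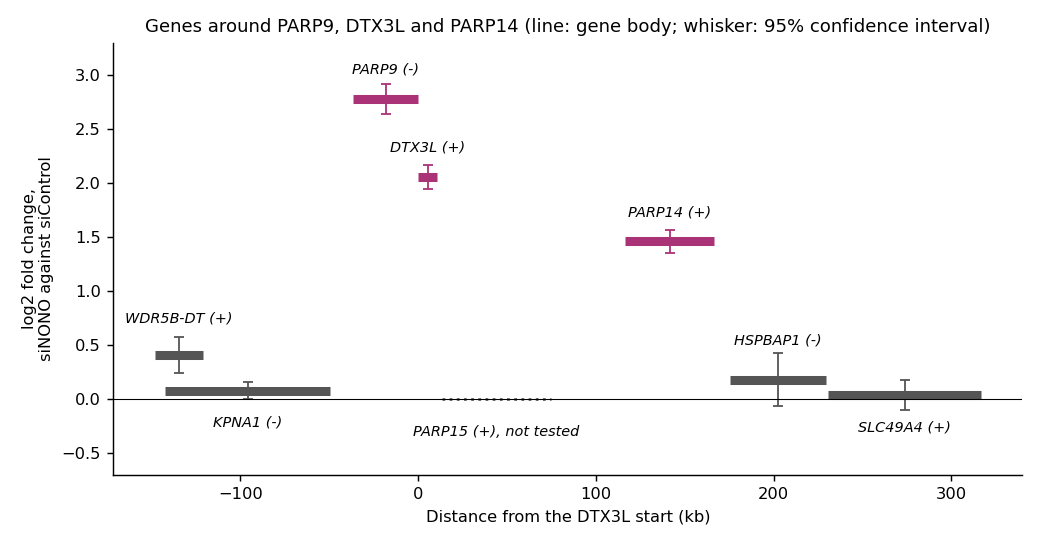
Log2 fold change of siNONO against siControl for the tested genes within 100 kb of PARP9, DTX3L or PARP14, drawn at each gene's position in kb from the DTX3L start, with the strand in brackets and the 95% confidence interval as a whisker. PARP9, DTX3L and PARP14 stand at 2.78, 2.06 and 1.46, the flanking genes at 0.04 to 0.41, and PARP15, drawn as a dotted line at 0, had too few counts to be tested.

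The remaining members lie apart from this cluster. PARP12 (chr7:139723549-139762751), ZC3HAV1 (chr7:138728261-138816868), PARP10 (chr8:145051321-145086940) and PARP1 (chr1:226547911-226595855) are on the minus strand and PARP2 (chr14:20811774-20826063) is on the plus strand. The RefSeq start of ZC3HAV1 shown above lies within this annotated body. Counting all tested genes within 100 kb of any member that are no members themselves, 33 in all, 9 were called higher, 8 lower and 16 neither, against 23.2% and 23.4% of all genes, with a median of 0.07. Their changes ran from -0.99 for WDR97 near PARP10 to 0.74 for KDM7A near PARP12. ZC3HAV1L, a gene related to ZC3HAV1 and 7473 bases from it, fell by 0.49 on the log2 scale (edgeR with Benjamini-Hochberg adjustment, adjusted p = 0.00048), with 13.4, 11.5 and 11.9 CPM in siControl and 8.42, 8.95 and 8.91 CPM in siNONO. TTC26, the nearest tested gene to ZC3HAV1, had a log2 fold change of -0.08 (adjusted p = 0.328). PLEC, a cytoskeletal linker gene whose start side lies 419 bases from PARP10, fell by 0.37.

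Genes that act with the interferon-linked members came next. IRF9, the DNA-binding part of the interferon-activated complex, rose from 13.9 ± 1.12 to 57.5 ± 3.10 CPM (SD, n = 3), a log2 fold change of 2.05. STAT2 was called higher at 0.92, while STAT6, a factor that PARP14 is known to assist, had 94.2 ± 2.40 and 95.8 ± 5.69 CPM, a log2 fold change of 0.02 (edgeR with Benjamini-Hochberg adjustment, adjusted p = 0.647).

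Of 5 cofactors of ZC3HAV1, 2 were called higher, 1 lower and 2 neither, beside 23.2% and 23.4% of all genes, with a median of 0.01. TRIM25, a ubiquitin ligase that ZC3HAV1 needs to block translation of viral RNA, rose from 197 ± 5.92 to 385 ± 24.2 CPM (SD, n = 3), a log2 fold change of 0.96. KHNYN, a nuclease that works with ZC3HAV1, was called higher at 0.39, and the RNA helicase gene DDX17 lower at -0.11. No cofactor was called lower without the siControl or the siNONO library of Set 2. The same held without the Set as a block and with limma on log2(TPM + 1) and log2(TPM + 0.1).

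Known partners of PARP1 and PARP2 were examined next. Of 9 partners at DNA breaks, 2 were called higher, 3 lower and 4 neither, beside 23.2% and 23.4% of all genes, with a median of -0.04. The 3 lower became 4 without the siControl or the siNONO library of Set 3. They became 2 with DESeq2, without the Set as a block, and with any 1 library of Sets 1 or 2 left out. APTX, which clears failed ligation ends, was highest of those called at 0.28, and TDP1, which frees DNA ends from trapped topoisomerase, was lowest, from 31.1 ± 1.59 to 21.6 ± 0.654 CPM (SD, n = 3), a log2 fold change of -0.53 (edgeR with Benjamini-Hochberg adjustment, adjusted p = 6.29e-06). HPF1, the cofactor that turns PARP1 and PARP2 towards serine, had a log2 fold change of 0.06 (adjusted p = 0.45).

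Supply and removal of ADP-ribose were also examined, again beside 23.2% of all genes called higher and 23.4% lower. Of 8 genes of NAD synthesis, 7 were tested, 4 were called higher, 1 lower and 2 neither, with a median of 0.29. The 4 higher became 3 without the Set as a block or without either library of Set 3, and 2 with DESeq2. With limma they became 1 on log2(TPM + 1) and 0 on log2(TPM + 0.1). NAPRT, called higher at 0.15, had libraries that overlapped between the groups. NMNAT3, a mitochondrial enzyme of the last step, was highest at 0.47, and NAMPT, the rate-limiting enzyme of NAD salvage, was called lower at -0.19, with siControl and siNONO libraries that overlapped. The call of NAMPT was lost without the Set as a block and with limma on log2(TPM + 1) and log2(TPM + 0.1). Of 6 ADP-ribose hydrolases, none was called higher, 2 were called lower and 4 neither, with a median of -0.19, and 1 was called higher without the siControl or the siNONO library of Set 3. MACROD1 and OARD1, which take the last ADP-ribose off proteins, fell by 0.47 and 0.32, from 19.1 ± 0.504 to 13.9 ± 1.31 CPM and from 22.3 ± 0.554 to 17.8 ± 0.990 CPM (SD, n = 3). PARG, which cuts the chains built by PARP1, had a log2 fold change of -0.07 (edgeR with Benjamini-Hochberg adjustment, adjusted p = 0.34). Over the 7 lists 26 genes were called in edgeR, 19 without the Set as a block, 18 with DESeq2, and 12 and 9 with limma on log2(TPM + 1) and log2(TPM + 0.1). The calls over all 17000 genes fell as well in these settings, from 7924 to 6164, 5227, 4206 and 3083.

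To see which genes moved most like each member, the log2 CPM of 13340 genes was centred over the 6 libraries and the root mean square difference from the member was taken, as a description. RIGI, a cytosolic RNA sensor, was nearest to PARP9, at 0.0786, followed by IFIH1 at 0.171. PLSCR1 was nearest to DTX3L, at 0.0694, with SAMD9 also among its 3 nearest, at 0.0879, and IFIH1 and IFI35 were nearest to PARP10, at 0.158 and 0.164. SHFL, SP100 and TRIM21 were nearest to PARP12, at 0.0682, 0.0752 and 0.0926. LAP3, TRIM14 and RPIA were nearest to PARP14, at 0.0502, 0.0512 and 0.0606, and OLFML2B, PLAUR and TNFSF18 to ZC3HAV1, at 0.0245, 0.0347 and 0.0365. SARS1, TWNK and PGD were nearest to PARP1, at 0.00935, 0.0171 and 0.0238, and COX16, LSG1 and MRPL35 to PARP2, at 0.014, 0.0164 and 0.0177. Partners were not each other's nearest genes, since DTX3L held place 27 from PARP9 and PARP9 place 50 from DTX3L. The places follow mainly the size of the change, because all 6 libraries share the one contrast.

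The mean transcript length of a gene, weighted by the estimated shares of its transcripts, moves only when those shares move and was tested apart from the level. Of 14129 genes whose length varied, 0 (0.0%) were called shorter and 0 (0.0%) longer in siNONO by limma with Benjamini-Hochberg adjustment. At an unadjusted p under 0.05 there were 650 shorter and 563 longer genes, and without the Set as a block limma called 0 shorter and 1 longer. ZC3HAV1, whose long form carries the PARP domain that its short form lacks, had 6535, 6560 and 6532 bases in siControl and 6278, 6304 and 5989 bases in siNONO. The groups did not overlap, yet the change of -5.40% was not called (limma adjusted p = 0.559 with Benjamini-Hochberg adjustment). PARP9 had 3757, 3809 and 3713 bases in siControl and 3610, 3643 and 3654 bases in siNONO, also without overlap and without a call (limma adjusted p = 0.618). The other members overlapped between groups. How many of the 14129 genes had lengths without overlap was not counted, so this trait has no share of all genes beside it. That of PARP10 was 1323, 2357 and 2453 bases in siControl and 1512, 1769 and 1813 in siNONO, so its TPM of 5.35, 2.13 and 2.73 in siControl spread more than its CPM did.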

How the data were processed

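Sickle for trimming, STAR for alignment to GRCh37 with GENCODE version 34, and RSEM (version 1.3.1) for counting were the tools the authors used. They deposited, per library and gene, the estimated count, not normalized, and the TPM and FPKM, both scaled by RSEM for length and library size, with the lengths. FPKM, as the authors deposited it, was not used.

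The deposited estimated counts were rounded and tested with edgeR (version 4.0.16) in its legacy quasi-likelihood form, after filterByExpr, with Benjamini-Hochberg adjustment. The study's methods name batch as a covariate, here taken as the Set. Set numbers come from the labels, and deviations of same-Set libraries correlated at 0.533, 0.284 and 0.573 over 9108 genes, so the numbers pair the libraries. No replicate was a repeat of another. Lengths were tested with limma (version 3.58.1), and scripts were tested on simulated data. Alternatives included DESeq2 (version 1.42.0). Positions come from GENCODE version 44 on GRCh37 and promoters from RefSeq, whose printed stretches each matched GRCh37 at 1 place.

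Named genes were the 8 members, NONO, the extreme calls of each list, tested genes within 100 kb of a member, member pseudogenes, and the 3 genes most like each member. Some results that this rule covers are not reported here. Others named from the lists, such as PARP3, HPF1 or PARG, were chosen after their values were seen. The members and lists were chosen with earlier results of these data known.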

Additional observations from a re-analysis of the deposited data

How the results depend on the processing

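All 6 interferon-linked genes were called higher under each of 16 alternatives, with adjusted p-values up to 0.0252, and no member was called lower. The number of members called higher ran from 6 to 8, and from 7 to 8 with 1 library left out. Without the Set as a replicate block, edgeR called 6164 genes in place of 7924, and of the members only PARP2 was no longer called. The number of changed genes became 5227 with DESeq2, 4206 with limma on log2(TPM + 1) and 3083 on log2(TPM + 0.1), and 6497 to 7653 with 1 library left out. The calls over the 7 lists went from 26 to 19 without the block, to 18 with DESeq2, to 12 and 9 with limma on the TPM scales, which changes the test and the scale at once, and to 20 to 25 with 1 library left out. The difference between the medians of the interferon-linked genes and of PARP1 and PARP2 was 1.59 on log2(TPM + 1), whose pseudocount understates changes of low genes, and 1.64 to 1.68 with 1 library left out. Per kilobase in place of TPM, 5 of the 8 members kept their place in siNONO. The causes were not tested. PARP10, with 91 to 138.5 counts per siControl library, is the member whose level is limited most by depth.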
